A study of Mus musculus with 2 samples.

Results

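Srebf1, Srebf2, Scap, Insig1 and Insig2 encode the sterol-sensing machinery of the sterol regulatory element binding proteins (SREBPs). They were taken by name as 5 of the 21802 protein-coding genes used. For each gene, all accessible regions and footprints in the gene body plus 50 kb on each side were examined. A promoter was the sequence within 1 kb of the start of a protein-coding transcript. Positions are on mm10 (GRCm38) with the GENCODE vM21 annotation.

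The data are DNase-seq of adrenal gland from male adult B6CASTF1/J mice aged 18 to 20 months, an F1 hybrid strain, with no treatment in the labels. In DNase-seq, nuclei are digested lightly with DNase I, and open chromatin is where many cuts fall. The 2 libraries, replicate 1 and replicate 2, formed 1 group, so no conditions could be compared. The labels number the libraries as biological replicates 1 and 2, from separate tissue samples but with a single donor entry. Whether 2 animals were used is not stated, so the spread between the libraries may be technical or within 1 animal.

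SREBPs are made as membrane proteins of the endoplasmic reticulum. SCAP, the product of Scap, senses cholesterol and escorts SREBPs to the Golgi, where proteases release the part that enters the nucleus and turns on genes of cholesterol and fatty acid synthesis. INSIG proteins, the products of Insig1 and Insig2, hold SCAP and SREBP back when sterols are plentiful, and the adrenal cortex draws on cholesterol to make its steroid hormones.

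The promoter sequences that carried the footprints are shown first, 5′ to 3′ in the sense of each gene, from the RefSeq GRCm38 reference. Footprints are short stretches protected from cutting inside open chromatin, called by the authors in each library. Capitals mark bases under a footprint in both libraries. Each promoter stretch ends 20 bases into the transcript and starts at the edge of the accessible region or 230 bases before the start. The animals carry a CAST allele beside the C57BL/6J allele, and only the C57BL/6J reference is shown. Srebf1 has its upstream coding start at 60220604 (chr11:60220585-60220740, minus strand) and an inner start at 60210465 (chr11:60210446-60210640, minus strand). The Srebf2 stretch is chr15:82147001-82147200, plus strand, the Scap stretch chr9:110333201-110333307, plus strand, and the Insig1 stretch chr5:28071133-28071382, plus strand.
Srebf1 upstream start: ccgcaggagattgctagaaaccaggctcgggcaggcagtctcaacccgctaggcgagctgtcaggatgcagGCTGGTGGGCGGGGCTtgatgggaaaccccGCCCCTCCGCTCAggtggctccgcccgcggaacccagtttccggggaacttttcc
Srebf1 inner start: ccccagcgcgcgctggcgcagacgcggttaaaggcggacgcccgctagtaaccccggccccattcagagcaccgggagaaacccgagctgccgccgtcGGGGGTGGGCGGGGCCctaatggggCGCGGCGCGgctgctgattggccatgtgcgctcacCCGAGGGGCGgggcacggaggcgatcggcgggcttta
Srebf2: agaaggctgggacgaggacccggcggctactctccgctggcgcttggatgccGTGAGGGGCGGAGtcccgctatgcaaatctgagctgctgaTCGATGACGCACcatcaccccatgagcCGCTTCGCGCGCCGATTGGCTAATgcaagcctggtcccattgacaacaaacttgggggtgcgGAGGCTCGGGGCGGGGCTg
Scap: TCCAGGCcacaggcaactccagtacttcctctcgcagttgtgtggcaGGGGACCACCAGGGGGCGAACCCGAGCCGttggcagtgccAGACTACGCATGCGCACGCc
Insig1: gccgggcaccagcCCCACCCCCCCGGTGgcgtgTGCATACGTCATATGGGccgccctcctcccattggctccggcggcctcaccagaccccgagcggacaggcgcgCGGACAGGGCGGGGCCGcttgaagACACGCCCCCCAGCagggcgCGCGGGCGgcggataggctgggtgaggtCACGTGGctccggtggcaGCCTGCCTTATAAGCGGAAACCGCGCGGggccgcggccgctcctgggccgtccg

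All 5 genes had an accessible promoter in both libraries. Over all protein-coding genes, 64.5% did, and with 5 genes little can be read from the difference. Heights are the authors' peak heights, a depth-normalised signal, and the median over the 14066 genes open in both libraries was 3.91. Each of the 5 genes stood above that median, with Scap and Insig1 also above the 90th percentile of 7.60. The order was Scap, Insig1, Srebf2, Srebf1 and Insig2. The ranges of Scap and Insig1 overlapped, as did those of Srebf1 and Insig2, whereas the range of Srebf2 lay wholly below that of Insig1 and above that of Srebf1.

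**Figure D1:**
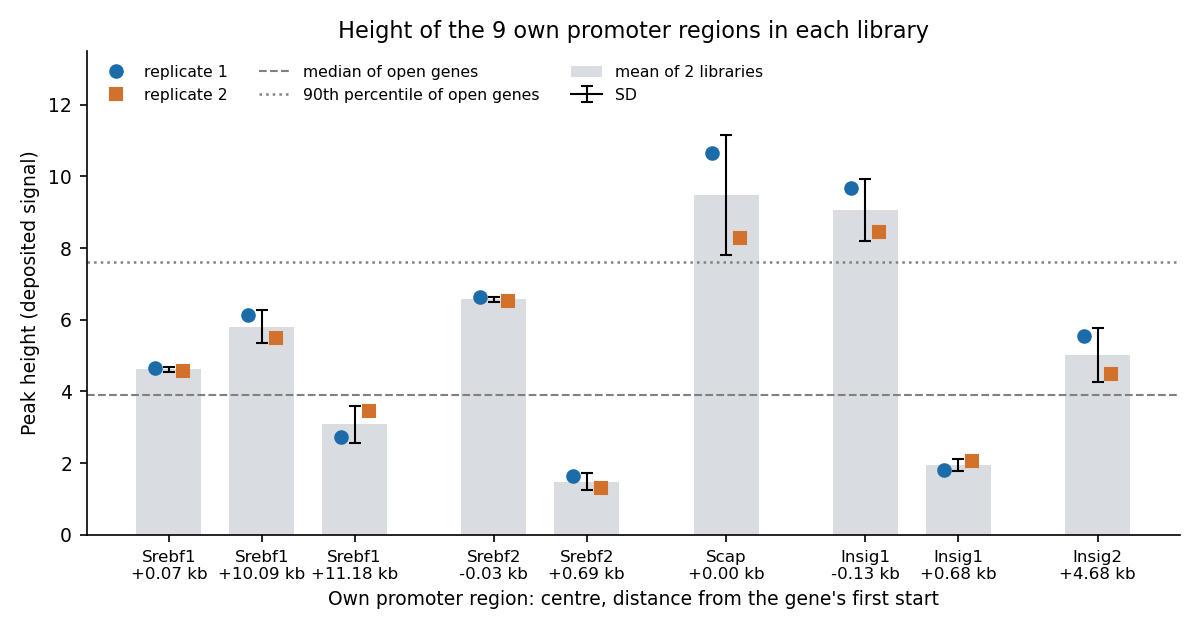
Peak height (deposited signal) of the 9 accessible regions within 1 kb of a start of the 5 genes, with the distance of each region's centre from the gene's first start in kb. Bars are means of the 2 libraries, error bars SD, points the libraries, and lines the median (3.91) and 90th percentile (7.60) of all open genes. Only the main regions of Scap and Insig1 pass the upper line in both libraries.

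Srebf1 (ENSMUSG00000020538.15, chr11:60199089-60222581, minus strand) encodes SREBP-1, which drives mainly fatty acid synthesis, and the gene is known to use alternative first exons. Its inner start had the higher peak. It measured 6.13 in replicate 1 and 5.48 in replicate 2 (5.80 ± 0.456, SD, n = 2), rank 3581 of the 14066 open genes. The upstream start had 4.66 and 4.57 (4.62 ± 0.0615). Both starts lay in open chromatin, and the inner peak was the higher in each library. Height is only the highest peak of a region, and the upstream region was wider, at 420 bp against 260 bp. A further region at chr11:60209281-60209560 had 2.72 and 3.44 (3.08 ± 0.508). It lay 905 bp downstream of the inner start, just inside the 1 kb limit, and held 2 CpG dinucleotides, against 35 and 44 in the regions at the inner and upstream starts. At the third coding start, 60207188, no peak and no position with a false discovery rate up to 0.05 was listed within 1 kb in either library.

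Srebf2 (ENSMUSG00000022463.8, chr15:82147181-82205379, plus strand) encodes SREBP-2, the main activator of cholesterol synthesis and uptake genes. Its promoter peak at chr15:82147001-82147300 measured 6.62 in replicate 1 and 6.52 in replicate 2 (6.57 ± 0.0733, rank 2491), the closest pair among the 5 genes. It covered the starts at 82147181 and 82147204. A wide second region of 660 bp, chr15:82147541-82148200, covered the start at 82148013 with 1.65 and 1.31 (1.48 ± 0.240). No footprint was called in that second region in either library, against 7 and 6 in the first. The start at 82194972, inside the gene, had no peak and no listed position within 1 kb. The hairpin of Mir33, a microRNA in an intron of Srebf2 that represses cholesterol efflux genes, starts 3150 bp from that start, and the region in both libraries nearest to the hairpin start was 8419 bp away.

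Scap (ENSMUSG00000032485.14, chr9:110333288-110384950, plus strand), the escort of the SREBPs, had the highest promoter peak of the 5 genes. It measured 10.7 in replicate 1 and 8.29 in replicate 2 (9.47 ± 1.67, rank 364) at chr9:110333201-110333380. This was also the widest gap between the libraries among the 5 main peaks. The region of 180 bp was the narrowest of the 9 promoter regions and covered the starts at 110333288 and 110333356. The start at 110344199, within the gene body, had no peak and no listed position within 1 kb.

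Insig1 (ENSMUSG00000045294.11, chr5:28071363-28078662, plus strand) encodes a retention protein and is itself a known SREBP target. It had heights of 9.66 and 8.44 (9.05 ± 0.862, rank 512) at chr5:28071061-28071400. It has a single coding start, 28071363. The same peak covered the start of Gm26608, a lincRNA on the other strand whose start lies 258 bp from that of Insig1, so the peak cannot be assigned to 1 of the genes. A second region within Insig1, chr5:28071861-28072220, had 1.82 and 2.06 (1.94 ± 0.171), with 0 footprints in replicate 1 and 1 in replicate 2. Upstream, a peak at chr5:28070145-28070292 lay 1071 bp from the start, just outside the promoter limit, at 0.515 in replicate 1 with no peak in replicate 2.

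Insig2 (ENSMUSG00000003721.14, chr1:121304353-121332589, minus strand), which encodes the other retention protein, had the lowest main promoter peak. It measured 5.54 in replicate 1 and 4.48 in replicate 2 (5.01 ± 0.750, rank 4958) at chr1:121327701-121328120. The annotation gives Insig2 11 distinct coding starts, of which 8 lay within 1 kb of this region and 5 inside it. The region also covered the start of Gm37174, an unverified transcript on the other strand. At the other 3 starts, 121323191, 121332550 and 121332589, no peak and no listed position was found within 1 kb.

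Over the 5 genes, 18 of 24 distinct coding starts had a peak within 1 kb in each library, against 60.1% of all 54236 such starts, and 13 were covered by one. The other 6 starts had no listed position within 1 kb in either library. Neighbouring starts of a gene share regions, above all at Insig2, so the starts are not independent and little can be read from the difference. The promoter regions were rich in G and C. Their median GC content was 68.0% over the 9 regions and 64.3% over all 22681 promoter regions found in both libraries. The main Insig1 region had the highest value, 75.3%, and CpG density was above the genome median in 7 of the 9.

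Promoter footprints that passed 20 bp in both libraries had nearly the same edges in each. They were at Srebf1, Srebf2, Scap and Insig1, with 1 each at Srebf2, Scap and Insig1. Those of Srebf1 lay in the region downstream of its inner start. They were chr11:60209363-60209386 in replicate 1 with chr11:60209362-60209386 in replicate 2 (24 and 25 bp), and chr11:60209473-60209493 with chr11:60209472-60209493 (21 and 22 bp). At Srebf2, a footprint of 26 bp in replicate 1 and 24 bp in replicate 2 (chr15:82147119-82147144 and chr15:82147120-82147143) covered ATTGG, which is CCAAT, the box bound by NF-Y, on the other strand, 43 bp before the start. At Scap, a footprint of 29 bp had the same edges in both libraries, chr9:110333248-110333276, and held a match to the CTCF motif 24 bp before the start. The longest Scap footprint in replicate 1 (35 bp, chr9:110333177-110333211) was 7 bp long in replicate 2. At Insig1, a footprint of 30 and 28 bp began at 28071329 in each library and ended 5 and 7 bp before the start. A further Insig1 footprint held the E-box CACGTG at chr5:28071311-28071316. Other footprints passed 20 bp in 1 library only. At Insig2, 1 of 23 bp in replicate 1 (chr1:121327722-121327744) overlapped none in replicate 2, and 1 of 24 bp overlapped 1 of 8 bp. Footprints of 21 bp overlapped ones of 14 bp at Insig1, 15 bp at Scap and 18 bp at the upstream Srebf1 start.

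**Figure D2:**
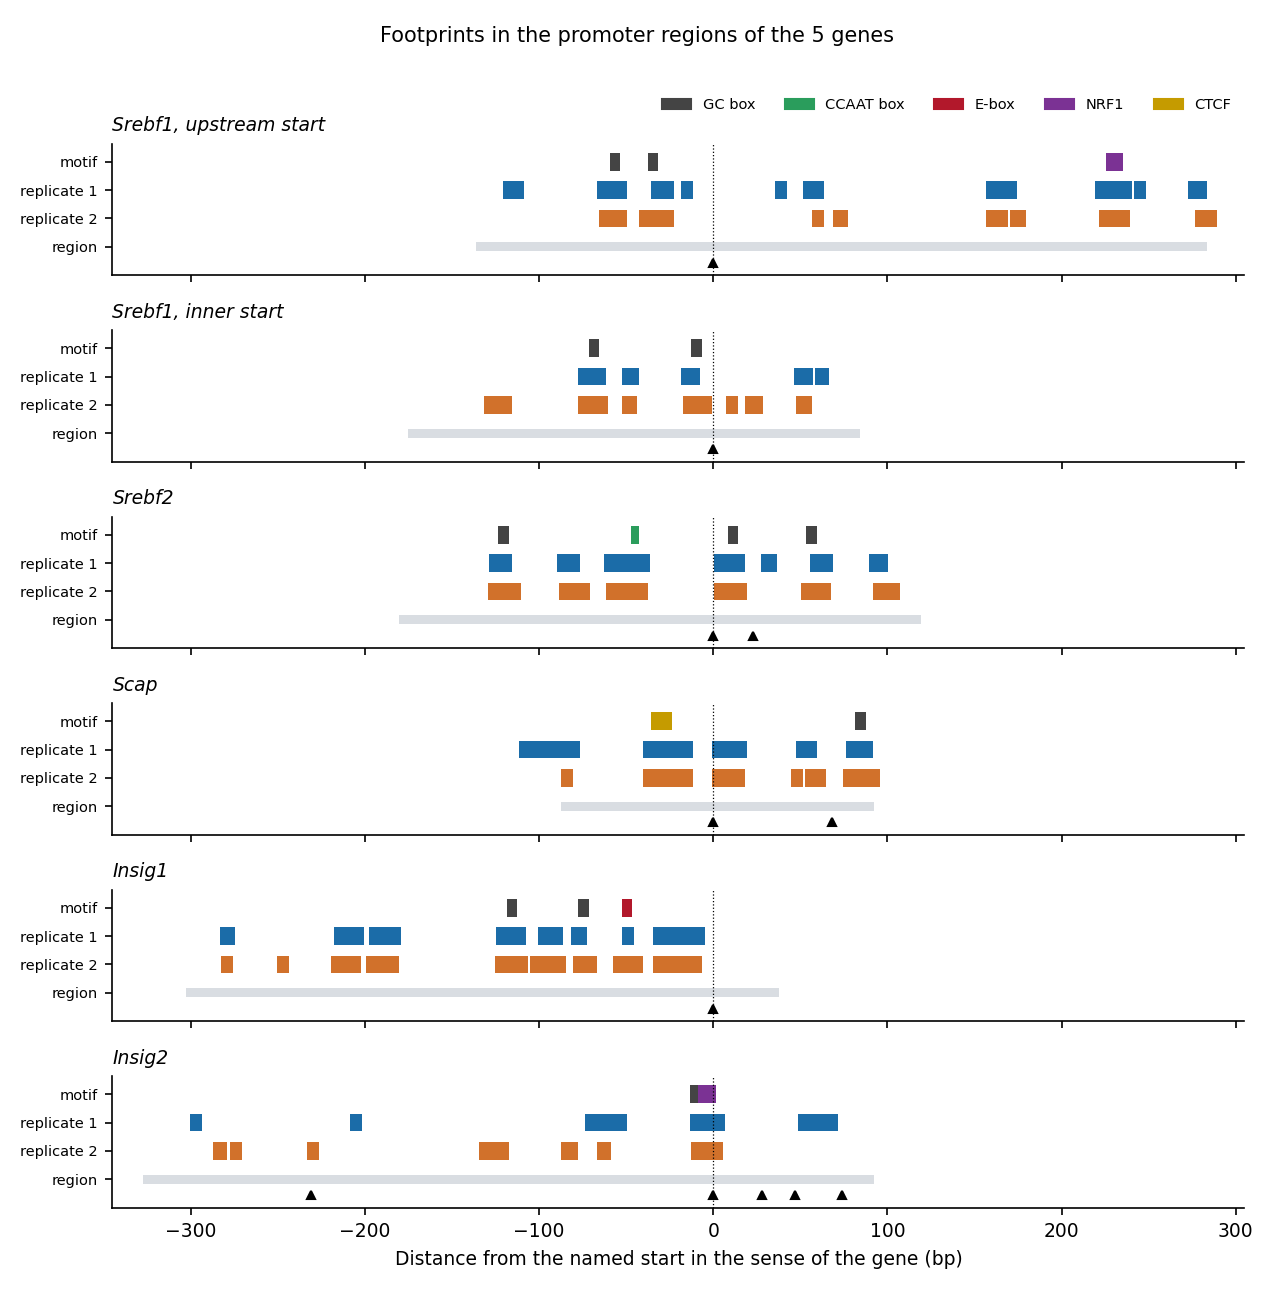
Footprints of replicate 1 (blue) and replicate 2 (orange) around the named start of each gene (121327793 for Insig2), in bp in the sense of the gene. Grey bars are the accessible regions, triangles annotated starts, and marks on the top row motif matches inside a footprint of both libraries. The Scap footprint from 40 to 12 bp before the start has the same edges in both libraries.

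GC boxes (GGGCGG, bound by SP1-type factors, which act with SREBPs at many targets) were the motif most often inside footprints. Motifs were searched as exact letters on both strands, and a match counted as inside a footprint when it lay within the footprint extended by 3 bp. Of 16 matches inside footprints of both libraries in the 9 promoter regions, 11 were GC boxes. All 5 genes had at least 1, and 6 of the 9 regions held one. Among all promoter regions, scanned as 400 bp windows, 6357 of 22681 held a GC box inside such footprints and 65.8% held one at all.

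The other motifs in promoter footprints were in 1 or 2 of the 9 regions each. CCAAT was inside footprints of both libraries in 1 of 9 regions (Srebf2), against 6.52% of all promoter windows. The E-box was in 1 (Insig1), against 2.23%, and the CTCF motif in 1 (Scap), against 1134 of the 22681 windows. NRF1 motifs, those of the nuclear respiratory factor NRF1, were in 2, against 5.64%. One of these lay 226 bp downstream of the upstream Srebf1 start, at chr11:60220369-60220378, and the other at chr1:121327792-121327801 at Insig2. The Insig2 match is shown in capitals with its flanks, chr1:121327782-121327811, plus strand.
Insig2: gagccgcactGCGCCTGCGCcgcccggcgg
It lay in a footprint of 20 bp in replicate 1 and 18 bp in replicate 2 that also held a GC box, and in replicate 2 this GC box was inside only with the 3 bp extension. None of the 9 promoter windows matched NR5A1 (CAAGGNCA, the motif of steroidogenic factor 1), CRE (TGACGTCA), AP-1 (TGANTCA) or GRE. Among all promoter windows these motifs were at 7.94%, 2.57%, 6.605% and 0.494%, so few matches among 9 would be seen at the background rate.

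The sterol regulatory element itself, the SREBP site, was searched as TCACNCCAC. No promoter window of the 5 genes held it, and 341 of all 22681 promoter windows did. The only match in an accessible region lay upstream of Srebf1, 2255 bp before the upstream coding start, at chr11:60222859-60222867. That region, chr11:60222781-60223020, lies 200 bp upstream of the 5′ boundary of the gene at 60222581, where a non-coding Srebf1 transcript starts, and measured 3.19 and 3.37 (3.28 ± 0.134). It ranked 3378 among the 43097 regions in both libraries that lie more than 1 kb from any protein-coding start, here called distal. Of all distal windows 754 (1.75%) held the element, so 1 match among the 24 around these genes is not read as particular to Srebf1. The region is shown on the minus strand, the sense of Srebf1, with the element reading tcaccccac in lower case.
Srebf1 upstream region: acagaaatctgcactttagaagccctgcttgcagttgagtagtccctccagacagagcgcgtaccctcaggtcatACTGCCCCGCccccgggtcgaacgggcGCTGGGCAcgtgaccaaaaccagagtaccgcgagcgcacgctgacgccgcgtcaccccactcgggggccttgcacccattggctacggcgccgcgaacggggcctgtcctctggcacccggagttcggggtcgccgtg
No footprint held the element in either library. In replicate 1 the nearest one, chr11:60222869-60222879, lay 1 bp away from it, and in replicate 2 a footprint, chr11:60222852-60222859, ended on its edge base.

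A shorter form of the element was added after the promoter sequences had been seen. Without its last letter, TCACNCCA matched the Srebf2 promoter at chr15:82147107-82147114, 67 bp before the start, with the sequence TCACCCCA. In replicate 1 the nearest footprint lay 2 bp away. In replicate 2 a footprint covered 4 of the 8 bases, and no footprint held the whole match in either library. The 8 letters occurred in 4.77% of promoter windows and 6.34% of distal windows of the genome. The same letters also occurred at chr5:28037294-28037301, 34062 bp upstream of Insig1.

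The inner start of Srebf1 had a match to the LXR DR4 motif, the site of the liver X receptors that are known to drive Srebf1 in other tissues. It lay 174 bp upstream of that start at chr11:60210639-60210653, across the edge of the accessible region, and in no footprint. Of all promoter windows, 0.657% held this motif. The match is in capitals, chr11:60210631-60210660, plus strand.
Srebf1 LXR DR4: cgcgctggGGTTACTGGCGGTCActgtcgt

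Beyond the promoters, the 5 windows differed widely in how many accessible regions they held. They held 82 merged regions, of which 40 were found in both libraries (48.8%, exact Clopper-Pearson 95% interval 37.6 to 60.1%), 20 in replicate 1 alone and 22 in replicate 2 alone. Over the genome, 45.7% of regions were in both, which lies inside that interval. Intervals cover counting error only. Srebf1 had 12 regions in both libraries, Srebf2 12, Insig1 8, Scap 7 and Insig2 1, where the median gene window had 7. Insig2 stood at percentile 14.9 of all gene windows by this count, and its single region was its promoter. Srebf1 and Srebf2 stood at percentile 80.7. The windows differ in length, and by count per 10 kb Srebf1 stood at percentile 82.8, Srebf2 at 72.4 and Insig2 at 14.2. The share found in both libraries was 70.6% at Srebf1 (interval 44.0 to 89.7%) and 12.5% at Insig2 (0.316 to 52.7%). Over the genome, promoter regions were found in both libraries more often (69.0%) than other regions (38.9%). The positions listed as accessible took up 4.22 and 3.77% of the Srebf2 window, but 1.03 and 1.77% of the Insig2 window, where the whole genome had 1.14 and 1.37%.

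**Figure D3:**
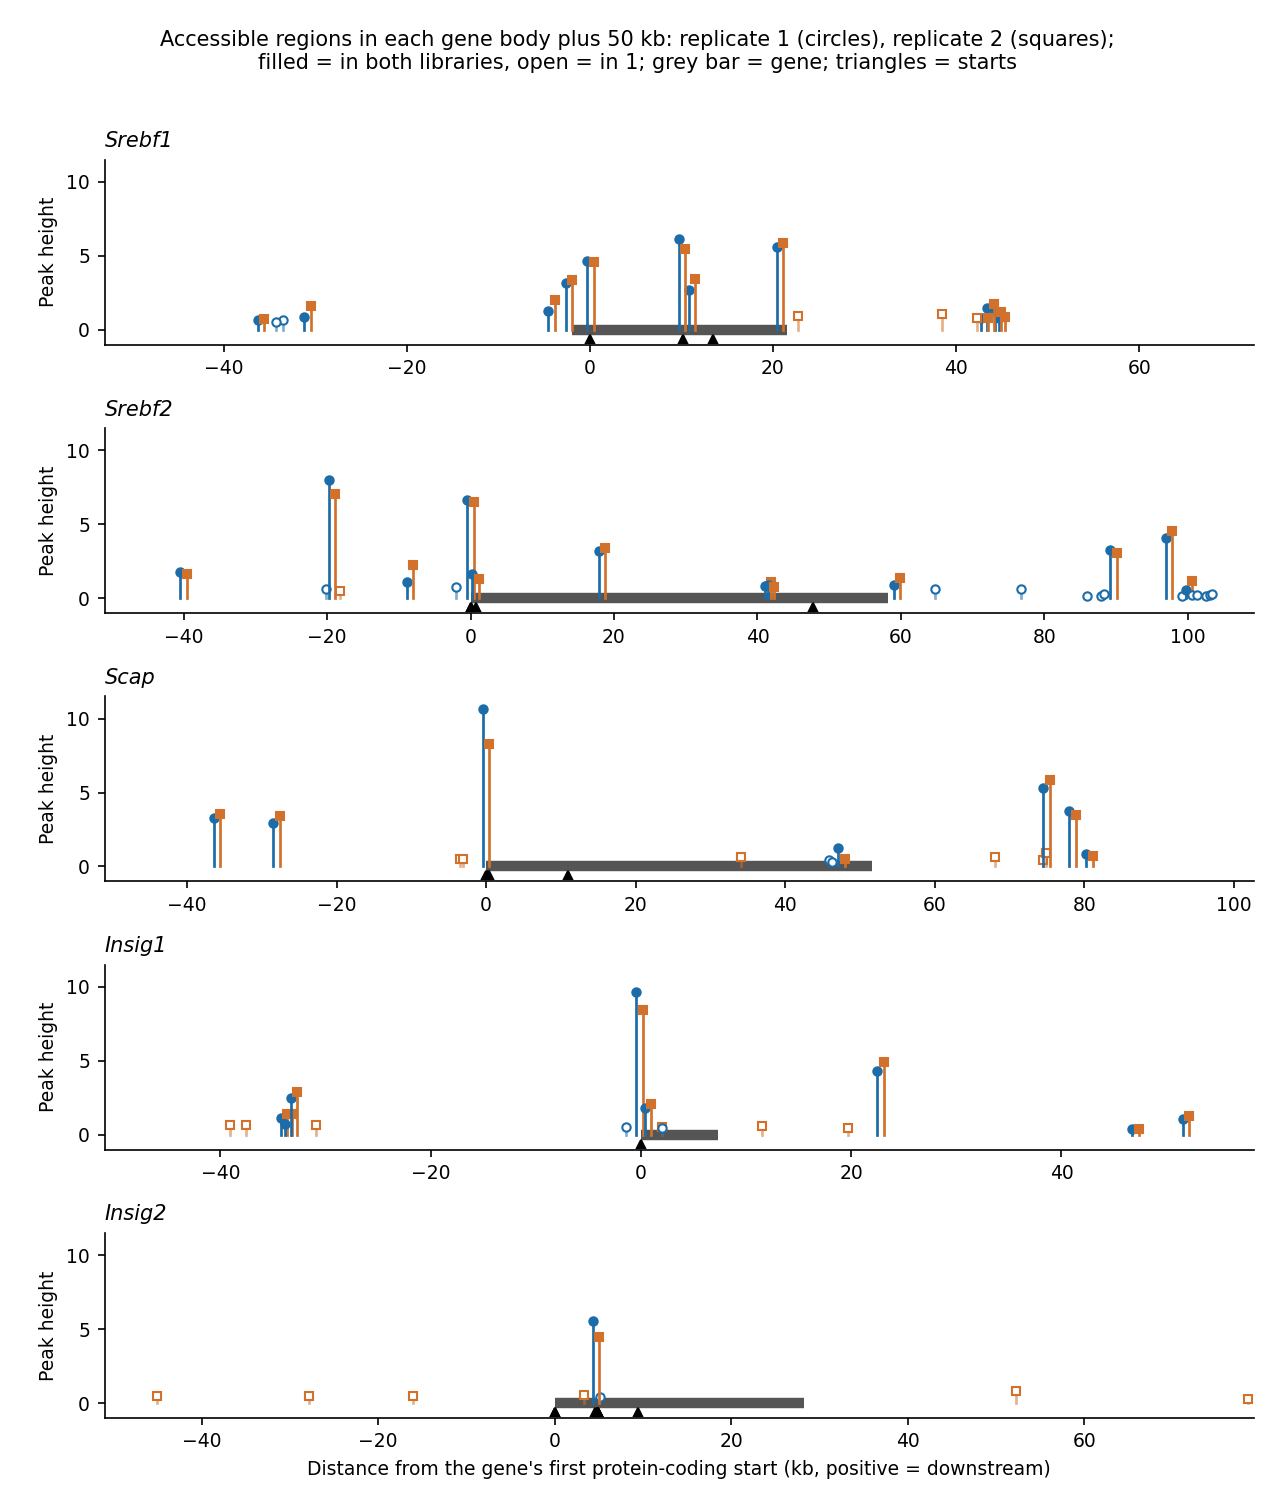
Peak height against distance from the first coding start (kb, in the sense of the gene) for every region in the 5 windows, replicate 1 as circles and replicate 2 as squares, set slightly apart. Filled marks are regions in both libraries and open marks regions in 1, which all stay at or under 1.09. Insig2 has 1 filled pair, its promoter, and Srebf1 has a pair of near promoter height at its 3′ end.

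Regions found in 1 library were low. The highest of the 42 reached 1.09 and their median was 0.506, against a median of 1.82 for the 40 found in both. Over the genome the order was the same. Regions in 1 library had medians of 0.276 in replicate 1 and 0.450 in replicate 2, and regions in both 1.18. Srebf2 alone had 13 regions in replicate 1 only. Of these, 9 had heights from 0.143 to 0.265 and lay 86.4 to 103.8 kb downstream of the first start, past the gene's end, around Cenpm and 1500009C09Rik. In the Insig2 window, 6 of 8 regions were in replicate 2 only.

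By place, the 40 regions fell into 9 in the genes' own promoters, 7 in promoters of neighbours, 4 in exons, 8 in introns and 12 in intergenic sequence. Only protein-coding genes counted for these classes. The lincRNA gene Gm26608 (chr5:28019465-28071105) spans the regions classed as intergenic upstream of Insig1. The neighbours were Rai1 next to Srebf1, Ccdc134 and Cenpm next to Srebf2, and Elp6 and Ptpn23 next to Scap. The promoter peak of Ccdc134, 19.3 kb upstream of Srebf2, measured 8.02 and 7.02 and was higher than that of Srebf2 in each library. Which gene a distal region acts on was not measured.

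The 24 distal regions included 7 above the 90th percentile of height among all distal regions and 2 above the 95th. The highest lay at the 3′ end of Srebf1. At chr11:60199721-60199940 the height was 5.62 in replicate 1 and 5.90 in replicate 2 (5.76 ± 0.198), rank 536 of 43097, as high as the inner promoter within the spread of the libraries. It lies in exon 19 of 19, with 204 of its 220 bases in the 3′ untranslated region and 16 in coding sequence, and has 3 CpG. Its footprints were long and repeated between libraries. One ran over chr11:60199806-60199849 in replicate 1 (44 bp) and chr11:60199806-60199847 in replicate 2 (42 bp). Another of 34 bp in each library held a CCAAT letter match, shown in capitals on the plus strand, chr11:60199873-60199902.
Srebf1 3′ end: tggaagaccacagCCAATgacaaaggtcct
Footprints of 40 bp or more made up 1.25% of all footprints in replicate 1 and 1.00% in replicate 2. The 5 windows held 3 in each library.

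Srebf2 had its highest intron region at chr15:82165401-82165600, 17388 bp from the nearest coding start, with 3.16 and 3.38 (3.27 ± 0.158). A footprint over chr15:82165471-82165514 in replicate 1 reached 1 base further in replicate 2. The other 2 footprints of replicate 1 also overlapped ones of replicate 2. In the sequence, on the plus strand, capitals again mark bases under a footprint in both libraries.
Srebf2 intron region: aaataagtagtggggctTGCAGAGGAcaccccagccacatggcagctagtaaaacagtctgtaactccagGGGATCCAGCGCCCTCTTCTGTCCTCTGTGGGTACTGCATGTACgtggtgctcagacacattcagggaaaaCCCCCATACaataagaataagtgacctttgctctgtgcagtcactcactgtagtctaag
None of the 15 motifs searched matched inside these footprints as exact letters, and near matches were not searched.

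Around Insig1, a group of 3 regions lay 33.0 to 34.0 kb upstream of the start. Its highest, chr5:28038261-28038440, measured 2.48 and 2.91 (2.69 ± 0.304). A footprint of 24 bp in replicate 1 and 25 bp in replicate 2 began at 28038332 in each.
Insig1 distal region: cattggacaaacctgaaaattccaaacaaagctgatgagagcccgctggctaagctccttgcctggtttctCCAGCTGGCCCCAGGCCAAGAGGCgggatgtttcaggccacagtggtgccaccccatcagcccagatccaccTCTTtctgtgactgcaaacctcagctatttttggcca
The highest distal region of Insig1 lay on the other side, 22.8 kb downstream at chr5:28094041-28094220, with 4.30 and 4.89 (4.59 ± 0.420, rank 1288 of 43097). It carried a CTCF match inside a footprint of 32 and 30 bp.

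CTCF matches inside footprints of both libraries marked 6 of the 24 distal regions, 3 around Srebf2, 2 around Scap and 1 around Insig1. Among all distal windows 19.6% held one, so the share here is near the background. CTCF is a factor known for chromatin loop anchors and boundaries. The 6 matches are printed in capitals with flanks, each read along the strand of the match, at chr15:82107151-82107180 (minus), chr15:82138720-82138749 (plus), chr15:82236785-82236814 (minus), chr9:110297281-110297310 (minus), chr9:110413971-110414000 (plus) and chr5:28094124-28094153 (minus).
Srebf2, 40.01 kb upstream: ctccatactCCACCAGGAGGCgctgcagga
Srebf2, 8.44 kb upstream: ttgttctctCCACAAGGGGGCaccaaggag
Srebf2, 89.6 kb downstream: cccatatggCCACAAGGTGGCaggccacac
Scap, 36.0 kb upstream: cttacatgcCCACCAGAGGGCagcagacat
Scap, 80.7 kb downstream: gtcacttggCCAGCAGATGGCgcgaaggcc
Insig1, 22.8 kb downstream: ctactgtggCCACCAGGGGGCgctgatgct
Their heights differed. The Srebf2 regions measured 1.70 ± 0.0648, 1.67 ± 0.778 and 3.15 ± 0.123, and the Scap regions 3.42 ± 0.206 and 0.747 ± 0.0918. The match in the Scap promoter is a further one, 24 bp from a start rather than far from any.

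Scap also had a low region inside its coding sequence. At chr9:110380601-110381020, over exons 15, 16 and 17 of 23, the height was 1.24 in replicate 1 and 0.517 in replicate 2. This was the largest difference between the libraries among the 40 regions, 1.26 on the log2 scale. None of its 3 footprints in replicate 1 overlapped one of its 3 in replicate 2.

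Heights otherwise differed between the libraries about as much as over the genome. The log2 ratio of replicate 1 to replicate 2 had a median of -0.09 over the 40 regions and -0.12 over all 65778 regions in both libraries. Of the 40, 38 lay inside the genome's 5th to 95th percentile of -0.99 to 0.51. The exceptions were the Scap coding region and chr15:82247241-82247440, downstream of Srebf2, with 0.552 and 1.15 (-1.06). The main promoter peaks of all 5 genes, and 7 of the 9 promoter regions, were higher in replicate 1. The genome median above covers promoter and distal regions together. How many of all promoter regions were higher in replicate 1 was not counted, so the lean is not read as particular to these genes.

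**Figure D4:**
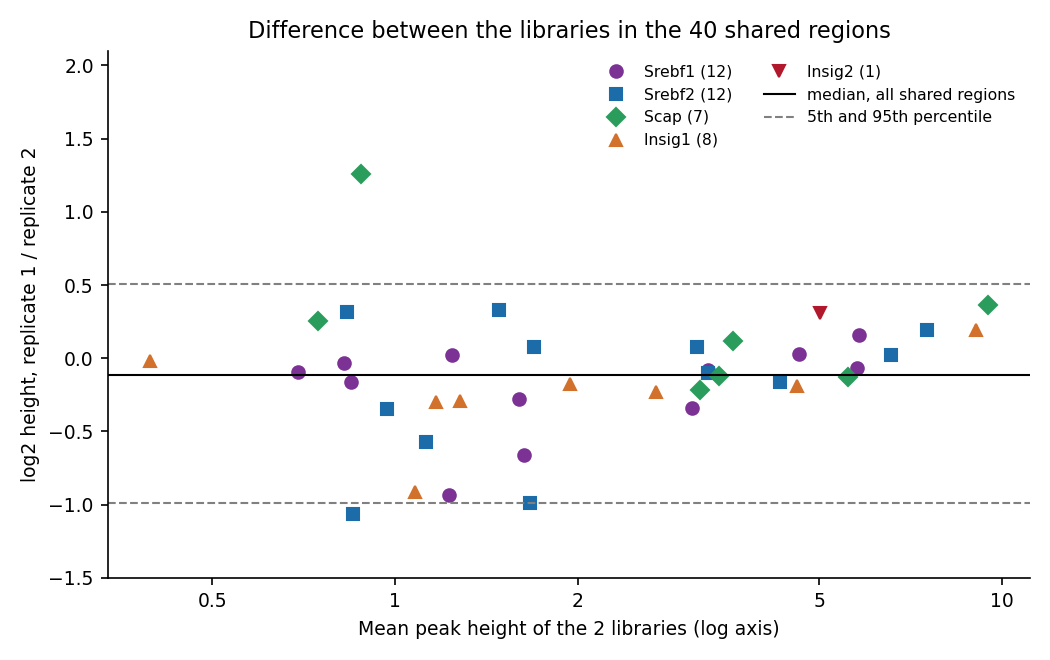
log2 ratio of the height in replicate 1 to that in replicate 2 against mean height (log axis) for the 40 regions in both libraries. The solid line is the median over all such regions of the genome (-0.12) and dashed lines its 5th and 95th percentiles. One Scap region lies above the band and 1 Srebf2 region below it, both at mean heights under 1.

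In the windows of the 5 genes 169 footprints were called in replicate 1 and 204 in replicate 2. Of these, 101 (59.8%) and 111 (54.4%) overlapped one of the other library, against 53.7% and 44.8% over the genome. At the Insig1 promoter, 8 of 8 footprints of replicate 1 overlapped one of replicate 2, at Srebf2 6 of 7, at Scap 5 of 5, at the inner Srebf1 start 4 of 5 and at the upstream start 6 of 10. Insig2 had 2 of 5. The genome shares above cover all footprints, and the share for promoter footprints alone was not counted. Replicate 2 had more footprints in all, 273271 against 228557, and the part of this in the shares was not tested.

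Of 70 genes in 8 lists, from the Golgi proteases to the targets of SREBPs, 69 had a promoter peak in both libraries, against 64.5% of all protein-coding genes, with a median height of 5.16, and 48 stood above 3.91. Mbtps1, the site-1 protease that makes the first Golgi cut, had 8.601 and 6.907 (7.75 ± 1.198), and Mbtps2, the site-2 protease on the X chromosome, 0.913 and 1.297 (1.11 ± 0.272). All 10 genes of the COPII coat, which carries SCAP and SREBP out of the endoplasmic reticulum, were open. Sec24c had the highest peak among them, at 9.55 ± 0.772, close to that of Scap.

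Among the 9 genes of ubiquitin-dependent turnover and sterol sensing in the endoplasmic reticulum, all were open with a median of 4.22. Erlin2 was highest at 7.90 ± 2.55. Of the 8 nuclear partners and turnover factors, all were open. Fbxw7, which marks nuclear SREBP for destruction, had the highest peak of the pathway at 11.0 ± 0.208, and Nfya, Nfyb and Nfyc, the subunits of the CCAAT-binding NF-Y, had 9.13 ± 0.213, 7.33 ± 1.23 and 6.74 ± 0.252. The 8 upstream signals had a median of 3.69, below the median of open genes. Nr1h2, an LXR gene, was highest there at 6.81 ± 0.364.

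Target genes had medians of 5.61 for cholesterol (15 of 16 open), 4.98 for fatty acids (14 of 14) and 4.82 for sterol efflux and LXR targets (3 of 3). Dhcr7, the last-step reductase of cholesterol synthesis, had 8.43 ± 0.545, and Acss2, which makes acetyl-CoA from acetate, 8.03 ± 0.974. Fdft1 and Mvk, enzymes of the mevalonate and sterol route, had 7.67 ± 0.391 and 7.60 ± 0.414. Of the 5 regulators, Scap, Insig1 and Srebf2 were above the cholesterol median in each library, the libraries of Srebf1 fell on both sides of it, and Insig2 was below it in each.

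**Figure D5:**
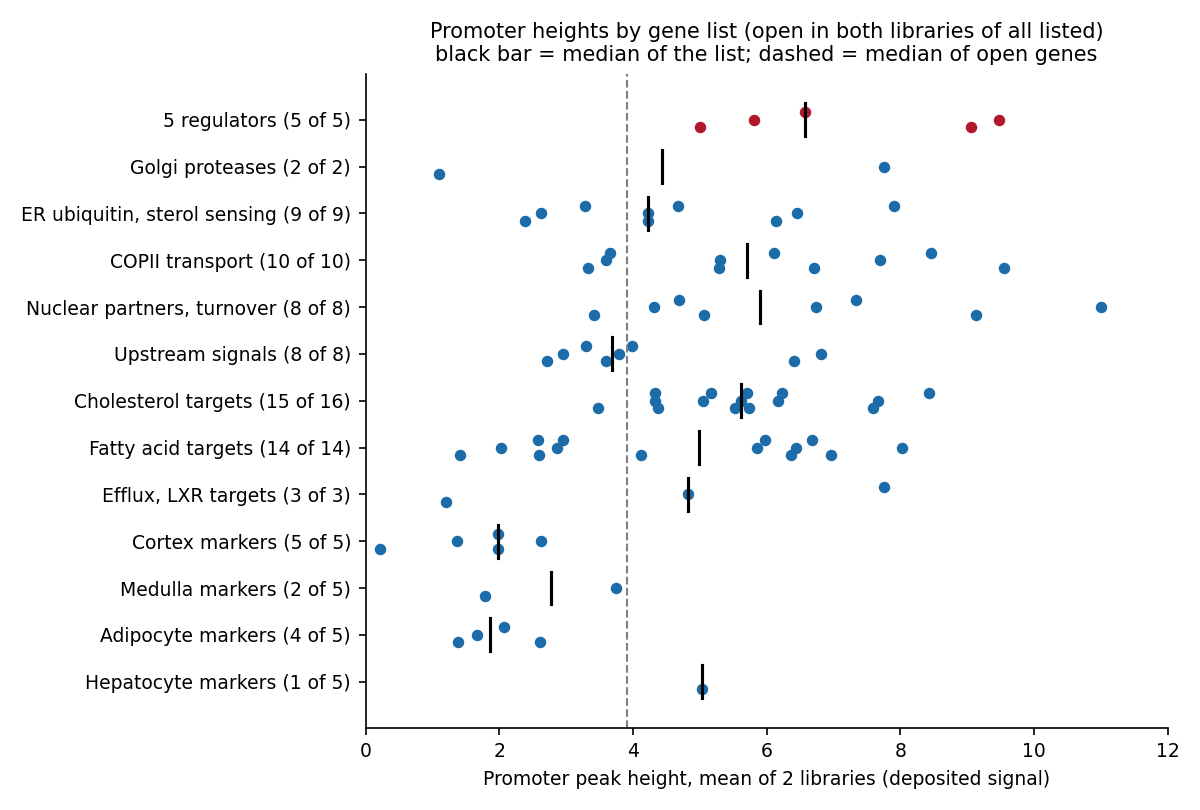
Mean promoter peak height of each gene open in both libraries, by list, with the number open of those listed. Black bars are list medians and the dashed line the median of all open genes (3.91). The 5 regulators lie to the right of the dashed line, and the cortex and adipocyte markers to its left.

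The tissue label was checked with markers, with counts for whole lists to be read against the 64.5% of all genes that were open. Of 5 cortex markers all were open, at heights from 0.217 to 2.63. Medulla markers were open in 2 of 5, at 1.79 and 3.74, with no promoter peak for Th and Pnmt. Adipocyte markers were open in 4 of 5, from 1.38 to 2.61, and hepatocyte markers in 1 of 5, with none for Alb, Ttr, Ahsg and Fgb. The open hepatocyte marker, Apoh, had 5.54 and 4.51 (5.03 ± 0.732), above all the other markers and close to Insig2. The part of fat cells in the heights of the 5 genes was not tested, and in bulk tissue fewer cells with an open site and less opening per cell cannot be told apart.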

How the data were processed

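DNase-seq peaks and footprints of 2 libraries of 1 group were used. Per the file headers, the authors called both per library on reads aligned to mm10 and then filtered. The sources used here do not name the aligner or the callers. Peak height is the signal deposited by the authors, normalised for depth by a factor not given. Each library had 2 deposited peak lists. The longer, with 98630 peaks in replicate 1 and 118249 in replicate 2, was used, and the shorter (62110 and 72815) was an alternative. Deposited footprints numbered 228557 and 273271, and their score, 0.01 in every row as deposited, was used for nothing. The deposited false discovery rate, a q-value, was listed only under 0.05 and covered 1.14% and 1.37% of the genome. Heights were whole multiples of 0.00531 and 0.00750. If 1 step is 1 cut, which no source states, replicate 1 was the deeper library. It had fewer peaks and footprints, and the effect of depth was not tested.

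Overlapping peaks (at least 1 bp) of both libraries were merged into regions, with the highest peak of each library as the height. Regions within 1 kb of a protein-coding start were promoters. Others were placed by their centre in exons or introns of protein-coding genes, or else called intergenic. Motif shares used 400 bp windows centred on the 22681 promoter and 43097 distal regions found in both libraries. Named genes were the 5 genes, genes nearest to their regions, and in each list up to 4 genes with the highest peak and any without one. Some genes that meet this rule are not reported here. The genes and lists were chosen with earlier results of these data known. With 1 group, no test between conditions was run, values are means ± SD over 2 libraries, and shares have exact 95% Clopper-Pearson intervals. Sequence and motif matches are from the C57BL/6J reference. Whether CAST alleles affected alignment was not examined. Python 3.11.15, numpy 2.4.6, scipy 1.17.1, matplotlib 3.10.9 and pysam 0.24.0 were used, and the functions were tested on simulated data.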

Additional observations from a re-analysis of the deposited data

How the results depend on the processing

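The 5 promoters stayed open in both libraries with the shorter peak list, with a narrower promoter limit and in each library alone. Their median height was 6.57, and 6.52 to 6.62 with 1 library left out. It moved to 9.47 when all peaks within 1 kb were summed. In that setting Srebf1 came first with 17.7, Insig1 had 11.0 and Srebf2 8.05, since Srebf1 has several peaks near its starts. Without replicate 1, Insig1 stood above Scap. The 40 regions in both libraries became 20 with 20 kb flanks and 75 with 100 kb, and a single library held 60 to 62. Around Insig2 the count was 2 without replicate 2, 7 without replicate 1 and 5 with 100 kb flanks. The share of regions in both libraries rose from 48.8% to 64.6% with the shorter list and was 40.2% when peaks had to overlap by 0.5 of each. When footprints had to overlap by 0.5 of each, 83 of 169 in replicate 1 and 83 of 204 in replicate 2 were shared. Motif matches inside promoter footprints numbered 16, or 11 with footprints as deposited. The 69 open pathway genes did not change in number with the shorter list or 1 library. No paired analysis was possible because there is only 1 group. With 2 libraries the SD is itself imprecise, and no region seen in 1 library was higher than 1.09.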
